A study of Hordeum vulgare with 12 samples.

Results

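The miRNAs of roots and shoots were compared in barley (Hordeum vulgare) plants that were all short of phosphate (Pi). Libraries from low-Pi roots (replicates 4, 5 and 6) and from low-Pi shoots (replicates 4, 5 and 6) were set against each other, which used 6 of the 12 libraries of the study. The remaining 6 libraries came from plants with sufficient Pi and were not used. All plants were of the barley line Rolap and stood in soil with 8 mg P per kg mixed with sand. The low-Pi plants received no further phosphate, whereas 60 mg P per kg was added for the Pi-sufficient plants. Roots and shoots were harvested on day 23, and each replicate pooled the 3 plants of a pot. The spread behind every p-value is therefore that among pots. It was not stated whether a root library and a shoot library with the same number came from the same pot. Every deposited small RNA sequence matching miRBase, the public registry of miRNAs, was taken and the root and shoot lists were joined on the sequence itself. Of 6279 sequences listed in either organ, 4818 had at least 1 read in a low-Pi library: 1447 in both organs, 1384 in root only and 1987 in shoot only. They were grouped into 190 families by the number in the miRBase name. A family name is that of the matched miRBase entry, which is often from another plant species, and not that of a barley locus.

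miRNAs are short RNAs that are cut from hairpin precursors by a Dicer-like nuclease and loaded into an ARGONAUTE protein, which they guide to complementary messenger RNAs. Plant miRNAs pair with their targets along nearly their whole length, and the seed near the 5′ end (bases 2 to 8) is the least tolerant of mismatches. Under Pi shortage, miR399 lowers the ubiquitin conjugase PHO2, a brake on Pi uptake, and in Arabidopsis it travels from shoot to root in the phloem. miR827 acts on SPX-domain genes, which in cereals encode Pi transporters of the vacuole.

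The sequences on which the results turn are printed below 5′ to 3′ as the deposited tables give them, with T for U and with the seed in capitals. The pairs of miR399, miR167, miR171 and miR319 are shown because a different member of the family led in each organ on average. The miR165 and miR5168 sequences are shown because they differed from the mature miR166 form by 1 or 2 bases and had very different organ ratios. The leading miR166 form starts 1 base earlier than the mature form.
miR399, leading in root: tGCCAAAGgagaattgccctg
miR399, leading in shoot: tGCCAAAGgagagttgccctg
miR827, leading in both: tTAGATGAccatcagcaaaca
miR167, leading in root: tGAAGCTGccagcatgatctga
miR167, leading in shoot: tGAAGCTGccagcatgatctgc
miR171, leading in root: tGAGCCGAaccaatatcactc
miR171, leading in shoot: tGTTGGCTcgactcactcaga
miR319, leading in root: tTGGACTGaagggtgctccct
miR319, leading in shoot: cTTGGACTgaagggtgctccct
miR319, root-enriched: tTGGACTGaagggagctccct
miR166, leading in both: tTCGGACCaggcttcattccc
miR166, mature form: tCGGACCAggcttcattccct
miR165, leading in both: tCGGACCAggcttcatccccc
miR5168, leading in both: tCGGACCAggcttcaatccct
miR168, leading in both: tCGCTTGGtgcagatcgggac
miR159, leading in both: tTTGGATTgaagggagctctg
miR6300, leading in both: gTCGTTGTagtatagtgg
Each pair of miR399 and miR167 shared its seed. With positions counted from 1 at the 5′ end, the shoot form of miR399 differed from the root form by A13G and that of miR167 by A22C. The shoot form of miR319 was the root form with 1 more base at the 5′ end, which moves the seed by 1 base. The root form of miR171 is annotated to the 3′ arm of one hairpin and the shoot form to the 5′ arm of another.

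The libraries held between 10565625 and 17614581 reads of 18 to 25 nt, and values are given as reads per 1000000 of these reads (RPM). A floor of 3 reads corresponded to between 0.170 RPM in root replicate 5 and 0.284 RPM in shoot replicate 6, and floors and intervals cover counting error only. Shoot replicate 6 stood apart. Between replicates of an organ the chi-square per degree of freedom over sequences lay between 7.44 and 16.7, but it reached 130 and 158 between shoot replicate 6 and shoot replicates 4 and 5. Of 41 families with a shoot mean of at least 10 RPM, shoot replicate 6 was more than 1.5 times above both other shoot libraries for 6 (miR159, miR168, miR5048, miR5049, miR7757 and miR9773). It was below both by the same factor for 8 (miR408, miR4995, miR5054, miR5072, miR5368, miR6201, miR8175 and miR894). The family calls that it changed, and its largest shifts, are given with and without it. Smaller shifts are not all given. Without it the log2 difference, root minus shoot, moved from -1.80 to -1.25 for miR159 and from -2.41 to -2.15 for miR168. That of miR408 moved from -5.41 to -5.80, that of miR8175 from 2.49 to 2.17 and that of miR5054 from 1.73 to 1.44. The tables hold small RNAs only, so the organ labels could not be checked against marker transcripts. In such bulk samples fewer cells of a type and less RNA per cell cannot be told apart.

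miRBase sequences took a larger part of the small RNAs in shoot than in root. They made up 1.22%, 0.940% and 1.21% of the reads in the root libraries and 5.01%, 5.39% and 5.83% in the shoot libraries. The groups did not overlap, and the mean share was 4.82 times higher in shoot. The two-sided exact permutation test gave p = 0.1, the smallest value that 3 against 3 libraries allow. This difference sets the scale for everything that follows. On the scale of RPM the median family was 2.62 log2 units lower in root, and with TMM factors, which centre the miRBase sequences on each other, the median moved by 2.92 to 0.30. A family can therefore be lower in root per library total and yet make up a larger part of the miRNAs there. Both scales are given, and the difference relative to the median family is called the relative difference.

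Of the 190 families, 70 passed the filter on low counts, and 68 of them were called at an adjusted p below 0.05 (edgeR quasi-likelihood test, 97.1% of those tested). They were 51 families higher in shoot (72.9%) and 17 higher in root (24.3%), and the RPM of the 2 organs did not overlap for 68 of 70 (97.1%). With TMM factors 21 families were called higher in shoot (30% of those tested) and 26 higher in root (37.1%). All 21 were among the 51 and all 17 among the 26. Over 4 scales (library totals, TMM factors, the totals of the miRBase sequences and the size factors of DESeq2), 30 families were lower in root on each scale that tested them, 17 were higher in root on each, and 23 turned with the scale.

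**Figure D1:**
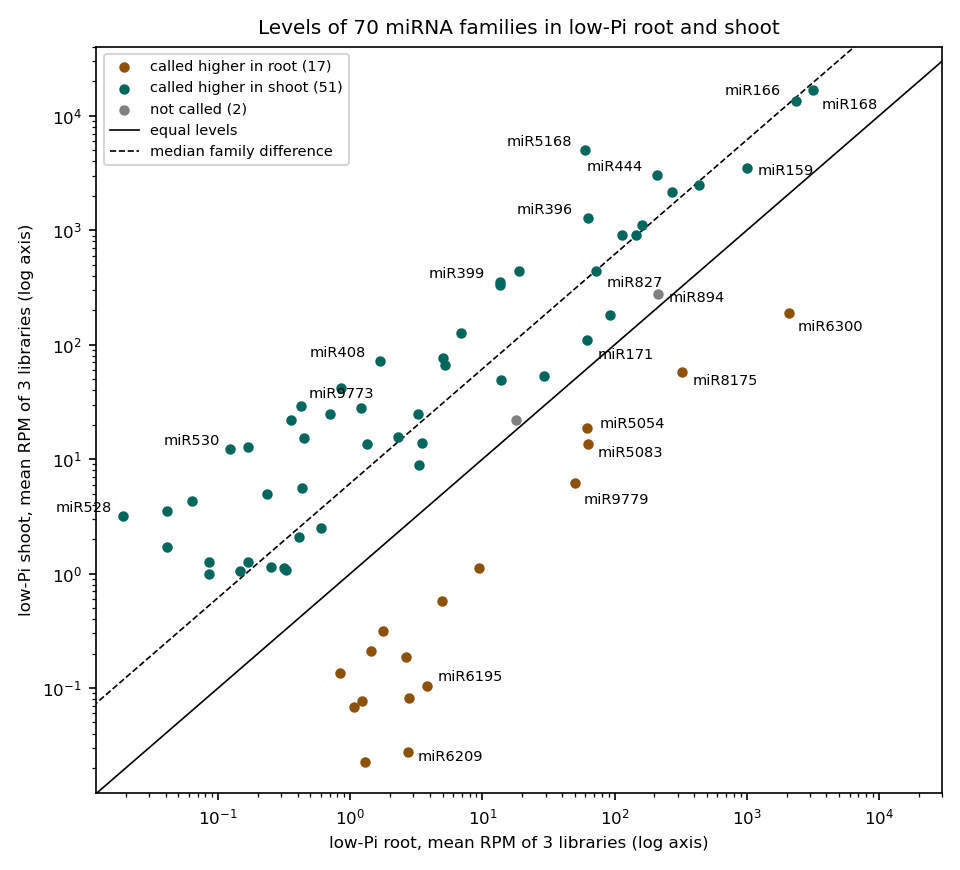
Mean RPM of 70 families in low-Pi root (x axis, log) and low-Pi shoot (y axis, log), each point the mean of 3 libraries. The solid line marks equal levels and the dashed line the median family, which was 2.62 log2 units lower in root. Per library total 51 families were called higher in shoot and 17 higher in root. Families between the lines, and a few just beyond the dashed line, change side when the miRBase sequences are centred on each other with TMM factors.

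The Pi families came first. miR399 was far higher in shoot. Its level was 14.7, 11.0 and 14.9 RPM in root replicates 4, 5 and 6 and 284, 379 and 394 RPM in the shoot replicates. No shoot library came near a root library, and the mean was 26.1-fold higher in shoot. The log2 difference, root minus shoot, was -4.70 (SE 0.26, edgeR adjusted p = 1.69e-08), and with TMM factors it was -1.77 (adjusted p = 1.55e-05), so miR399 was shoot-enriched also among miRNAs. Both leading forms showed it. The shoot-leading form was at 3.07, 2.95 and 4.05 RPM in root and 124, 155 and 174 RPM in shoot (log2 difference -5.49, SE 0.33). The root-leading form was at 5.73, 2.61 and 4.71 RPM in root and 80.9, 114 and 121 RPM in shoot (log2 difference -4.60, SE 0.36).

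miR827 differed less. The family reached 82.3, 57.8 and 76.7 RPM in root and 465, 386 and 484 RPM in shoot, again with no overlap, 6.16-fold higher in shoot on average. Its log2 difference was -2.62 (SE 0.23, edgeR adjusted p = 3.46e-07), which is the median of all families. The difference turned to 0.30 with TMM factors (adjusted p = 0.216), so among miRNAs miR827 was not called in either direction. In root, where miR399 was at a mean of 13.5 RPM, miR827 stood at 72.3 RPM, while in shoot the means were 353 and 445 RPM. The other listed Pi families, miR2111 and miR778, had no read in these libraries. Both tested Pi families were called higher in shoot by RPM, beside 72.9% of all families, and the median of the pair was -3.66 against -2.62 for all families.

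Of the copper families, which act on messenger RNAs of copper proteins, miR408 and miR528 lay at the shoot end of the range and miR397 nearer the median. miR408, which acts on plastocyanin-like proteins, was at 1.13, 1.82 and 2.12 RPM in root and 59.7, 130 and 26.9 RPM in shoot. The shoot libraries spread widely but stayed above every root library, and the log2 difference was -5.41 (SE 0.56). Without shoot replicate 5 it was -4.67. miR397, which acts on laccases, was at 3.80, 4.77 and 7.16 RPM in root and 49.2, 90.8 and 60.8 RPM in shoot (log2 difference -3.67, SE 0.35, and -0.71 with TMM factors, not called). miR528, a family of monocots that acts on copper oxidases in rice, had 1 read in all root libraries together and 118 in shoot. That is a ratio of 151 with an exact 95% interval from 26.5 to 5996. The shoot libraries were uneven, at 1.71, 6.41 and 1.42 RPM, and the fitted log2 difference of -6.75 was -5.75 without shoot replicate 5 and -8.43 without root replicate 5, the library with the only root read. All 3 tested copper families were called higher in shoot by RPM (72.9% of all families), with a median of -5.41, and 2 of them also with TMM factors (30% of all families). The 3 were lower in root on each scale that tested them. miR528 was not tested with the totals of the miRBase sequences. miR398, which acts on copper and zinc superoxide dismutases, had too few reads to test (at most 0.133 RPM in a root library and 1.64 RPM in a shoot library).

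Of the nitrogen and sulfur families, all 4 were called higher in shoot by RPM (median -4.24), beside 72.9% of all families, and 3 of them also with TMM factors, beside 30%. miR169, which acts on NF-YA transcription factors, was at 12.6, 11.0 and 17.4 RPM in root and 253, 530 and 224 RPM in shoot (log2 difference -4.62, SE 0.38). miR393, which acts on the TIR1-type auxin receptors, was at 0.733, 0.511 and 0.862 RPM in root and 22.9, 26.1 and 25.1 RPM in shoot (log2 difference -5.13, SE 0.36). miR444, a cereal family that acts on MADS-box genes, was much more abundant, with 188, 237 and 204 RPM in root and 2649, 3514 and 3010 RPM in shoot (log2 difference -3.86, SE 0.23). miR395, which acts on ATP sulfurylases and a sulfate transporter, was scarce in both organs: at most 0.133 RPM in root and at most 1.14 RPM in shoot (log2 difference -3.40, SE 0.49, not called with TMM factors, adjusted p = 0.475).

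The 4 auxin families, miR393 among them, were all called higher in shoot by RPM, beside 72.9% of all families, with a median of -4.06. miR160, which acts on auxin response factors, was at 6.67, 6.87 and 7.10 RPM in root and 135, 128 and 113 RPM in shoot (log2 difference -4.19, SE 0.24). miR390, which starts the production of small RNAs against other auxin response factors, was at 5.27, 4.60 and 5.31 RPM in root and 73.1, 72.1 and 86.6 RPM in shoot (log2 difference -3.93, SE 0.26). Replicates of both families lay close together, and both kept their direction with TMM factors (called for each, at -1.24 for miR160). miR167, another regulator of auxin response factors, had a log2 difference of -2.52 (SE 0.22) by RPM and turned to 0.43 with TMM factors (adjusted p = 0.0505).

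**Figure D2:**
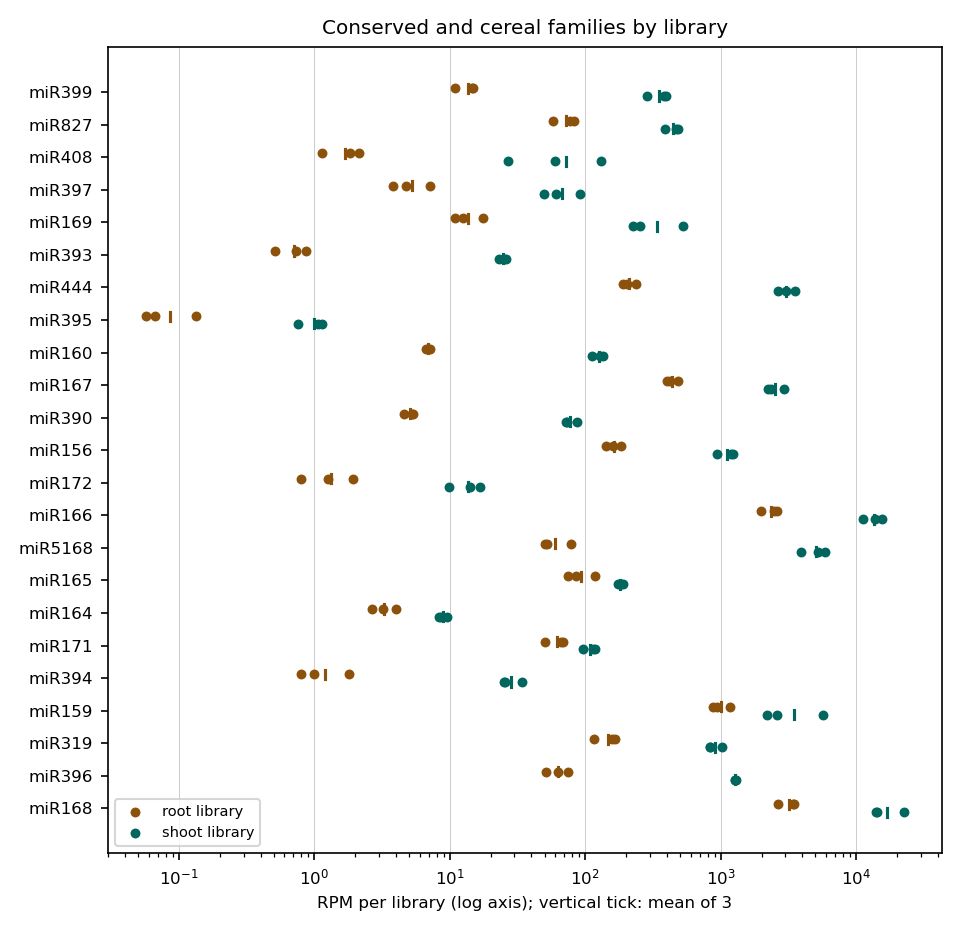
RPM of 23 conserved and cereal families in each of the 3 root libraries and the 3 shoot libraries (log axis), with a vertical tick at the mean. For miR399 the root libraries lie between 11.0 and 14.9 RPM and the shoot libraries between 284 and 394 RPM. For miR171 the root libraries lie between 50.8 and 68.7 RPM and the shoot libraries between 95.7 and 118 RPM.

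The families of leaf polarity and organ boundaries fell on both sides of the median. miR166 and miR165, which act on the HD-ZIP III factors of the upper leaf side, had unlike ratios. miR166 was at 2453, 1981 and 2612 RPM in root and 13747, 15643 and 11210 RPM in shoot, 5.76-fold higher in shoot. miR165 was at 74.9, 85.4 and 118 RPM in root and 174, 182 and 189 RPM in shoot, only 1.96-fold higher. miR5168 was the extreme: 50.1, 52.3 and 78.3 RPM in root and 5214, 5920 and 3943 RPM in shoot, an 83.5-fold mean difference (log2 difference -6.38, SE 0.32, edgeR adjusted p = 1.34e-08). These names rest on few bases. The leading miR5168 sequence differed from the mature miR166 form printed above by T16A alone, and the leading miR165 sequence by T17C and T21C. All 3 have the same seed. The mature miR166 form itself averaged 13.2 RPM in root and 410 RPM in shoot. The leading miR5168 sequence, 1 base away, averaged 47.8 RPM in root and 4066 RPM in shoot. The mature form was a small part of miR166. The leading miR166 form starts 1 base earlier, so its seed is not the shared one. It held 92.2% of the family in root and 93.2% in shoot, at means of 2167 and 12624 RPM. miR5168 ranked 3 among all families in shoot, with 9.39% of the miRBase reads there (SD 2.29), and 19 in root with 0.538% (SD 0.119).

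miR164, which acts on NAC boundary genes, and miR171, which acts on GRAS genes of the meristem, had small differences when reads were summed by family. The root-leading and shoot-leading forms of miR171, given below, differed in opposite directions. miR171 was at 50.8, 68.7 and 65.7 RPM in root and 95.7, 113 and 118 RPM in shoot, and miR164 at 3.20, 2.67 and 3.98 RPM in root and 8.67, 9.53 and 8.33 RPM in shoot. Their log2 differences of -0.82 (SE 0.22) and -1.43 (SE 0.33) were called lower in root by RPM, but with TMM factors they turned to 2.14 and 1.51 and were called higher in root. miR165 turned in the same way, from -0.97 to 1.97. miR394, which acts on an F-box gene of the shoot meristem, was instead shoot-enriched on each scale, with 1.80, 0.795 and 0.995 RPM in root and 24.9, 25.7 and 34.0 RPM in shoot (log2 difference -4.56, SE 0.39). The median of the 5 families was -1.43.

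Of the families of growth and ageing, miR319 and miR156 were close to the median, miR396 and miR172 lay toward shoot and miR159 toward root. miR396, which acts on growth-regulating factors, was at 73.9, 51.3 and 62.7 RPM in root and at 1297, 1277 and 1275 RPM in shoot (log2 difference -4.36, SE 0.23, and -1.43 with TMM factors, both called). miR319, which acts on TCP factors, was at 165.8, 116 and 157 RPM in root and 1028, 839 and 838 RPM in shoot (log2 difference -2.62 by RPM and 0.30 with TMM factors). miR156, which acts on SPL factors and marks the juvenile phase, had a log2 difference of -2.79 by RPM and 0.15 with TMM factors. miR172, its counterpart of the adult phase, was scarcer, with 1.93, 0.795 and 1.26 RPM in root and 14.1, 9.78 and 16.7 RPM in shoot (log2 difference -3.35, SE 0.42, and -0.45 with TMM factors, not called). miR159, which acts on MYB factors of the GAMYB type, was at 1176, 941 and 884 RPM in root and 2583, 2189 and 5646 RPM in shoot. The highest of these was shoot replicate 6. Its log2 difference of -1.80 (SE 0.34) turned to 1.12 with TMM factors, called in opposite directions.

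miR168, which acts on ARGONAUTE1 and is thereby part of the silencing machinery itself, had the highest mean level of all families in both organs. In shoot this rank rested on replicate 6, since miR168 held 27.9%, 26.3% and 38.7% of the miRBase reads in shoot replicates 4, 5 and 6, and miR166 held 27.4%, 29.0% and 19.2%. On average miR168 held 28.3% (SD 0.238) of the miRBase reads in root and 31.0% (SD 6.74) in shoot, at 3451, 2632 and 3439 RPM in root and 13966, 14193 and 22581 RPM in shoot. Its log2 difference of -2.41 (SE 0.28) turned to 0.51 with TMM factors (adjusted p = 0.0732). The 10 largest log2 differences toward shoot among families with a mean of at least 10 RPM in shoot included those of miR530 (-6.50), miR5566 (-6.19), miR9773 (-6.08), miR6201 (-5.92), miR5368 (-5.61) and miR4995 (-5.10). miR530 was at 0.0667, 0.170 and 0.133 RPM in root and 14.2, 12.9 and 9.37 RPM in shoot. miR9773 rested in part on 1 library, with 14.3 and 16.6 RPM in shoot replicates 4 and 5 but 56.2 RPM in replicate 6. Its log2 difference was -5.17 without that library.

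Of 18 families chosen as cereal miRNAs, 11 passed the filter. All 11 were called higher in shoot by RPM (median -3.86), beside 72.9% of all families. With TMM factors 5 were called higher in shoot and 2, miR1432 and miR5049, higher in root, beside 30% and 37.1% of all families. miR5051 was at 14.7, 19.02 and 22.8 RPM in root and 492, 329 and 501 RPM in shoot (log2 difference -4.55, SE 0.28). miR5048, an abundant barley family, was at 277, 262 and 278 RPM in root and 1794, 1770 and 2906 RPM in shoot (log2 difference -2.98, SE 0.25, and -0.056 with TMM factors). miR9662 was at 121, 117 and 106 RPM in root and 981, 1025 and 710 RPM in shoot, with nearly the same log2 difference (-2.98, SE 0.23, and -0.026 with TMM factors). miR5052 had 2 reads in root and 132 in shoot, a ratio of 84.2 (exact 95% interval 22.9 to 703), and miR6196 had 3 and 162, a ratio of 68.9 (23.2 to 338).

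The families higher in root were mostly scarce. Per family, the median share of reads annotated as precursor matches was 90.3% among the 17 root-higher families and 11.6% among the 51 shoot-higher ones. Such reads were the majority in 11 of the 17 and in 17 of the 51. Among the latter in shoot were miR160 (67.0%), miR393 (55.1%), miR396 (51.0%), miR397 (65.9%) and miR444 (71.9%). The levels given for these families therefore include many reads not annotated as the mature miRNA. The median level in the organ where the family was higher was 2.77 RPM in root and 28.2 RPM in shoot. Only 5 root-higher families reached a mean of 10 RPM in root. For 3 of these, miR6300, miR8175 and miR5054, the share of precursor matches in root was just 0.468%, 0.536% and 0.0341%. Over all miRBase reads it was lower in root, at 7.20%, 7.77% and 6.18%, than in shoot, at 8.37%, 9.07% and 7.80%. miR6300 was the most abundant of them, at 2418, 1523 and 2360 RPM in root and 211, 193 and 167 RPM in shoot, 11.0-fold higher in root (log2 difference 3.46, SE 0.25, edgeR adjusted p = 1.25e-07). It ranked 3 in root with 18.5% of the miRBase reads (SD 2.02) and 17 in shoot with 0.356%. Its leading sequence of 18 nt, printed above, held 94.0% of the family in root and 67.4% in shoot. miR8175 was at 341, 217 and 409 RPM in root and 78.8, 64.2 and 29.1 RPM in shoot (log2 difference 2.49, SE 0.36). miR9779 was at 51.9, 57.5 and 40.6 RPM in root and 6.28, 6.33 and 6.06 RPM in shoot (log2 difference 3.00, SE 0.27). miR5083 was at 62.7, 63.5 and 60.8 RPM in root and 12.6, 13.6 and 14.3 RPM in shoot (log2 difference 2.21, SE 0.23). miR5054 was at 71.7, 48.4 and 66.9 RPM in root and 23.6, 22.4 and 10.2 RPM in shoot (log2 difference 1.73, SE 0.33). All 5 were higher in root on each scale.

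Of these, miR6300, miR8175, miR9779 and miR5083 belong to a list of 12 entries taken to resemble pieces of structural RNA, although no sequence was compared with structural RNA here. Some of its members had been reported from these libraries, so its direction is not independent evidence. Of the 9 tested members 5 were called higher in root, 2 higher in shoot (miR1511 and miR5368) and 2 were not called by RPM (median 2.21), beside 24.3% of all families higher in root and 72.9% higher in shoot. With TMM factors 8 were called higher in root, miR1511 among them, beside 37.1% of all families, and only miR5368 higher in shoot. The list held 0.281% of all reads in root (SD 0.0630) and 0.0665% in shoot (SD 0.0178), so it ran against the miRBase share as a whole. Without it the miRBase share was 0.842% in root and 5.34% in shoot, 6.35 times higher in shoot. miR894 was at 251, 169 and 219.5 RPM in root and 353, 330 and 155 RPM in shoot, and miR5072 at 21.5, 15.6 and 16.9 RPM in root and 28.3, 29.6 and 8.71 RPM in shoot. Both organs overlapped through shoot replicate 6. Their log2 differences of -0.39 and -0.30 were not called (edgeR adjusted p = 0.221 and 0.465), but without shoot replicate 6 they were -0.68 and -0.68 and were called lower in root by RPM (adjusted p = 0.00761 and 0.0107). With TMM factors both were higher in root, at 2.55 and 2.65.

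The remaining root-higher families were scarce and mostly bore names of barley entries. miR6195, miR6209 and miR6188 were chosen here after their values were seen. miR6195 was at 3.73, 4.66 and 3.12 RPM in root and 0.0683, 0.247 and 0 RPM in shoot. It was spread over 100 distinct sequences in root, where 96.2% of its reads were annotated as precursor matches. miR6209 had 130 reads in root and 1 in shoot, a root-to-shoot ratio of 102 (exact 95% interval 17.97 to 4055). miR6188 had 62 reads and 1, a ratio of 48.6 (8.41 to 1950).

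The length of the reads differed between organs along with these families. Sequences of 21 nt made up 58.1%, 60.2% and 58.8% of the miRBase reads in root and 79.7%, 79.9% and 81.1% in shoot. Sequences of 18 nt made up 26.1%, 22.1% and 25.1% in root and 3.28%, 3.17% and 2.93% in shoot. Neither length overlapped between organs (11 of 15 shares by length, first base and match type did not, 73.3%), and the exact permutation p of 0.1 became 0.136 after adjustment over the 15 shares. Without the list resembling structural RNA, 21 nt reads made up 78.0% (SD 1.13) in root and 81.2% (SD 0.449) in shoot, and 18 nt reads 4.43% (SD 0.574) and 2.43% (SD 0.0769). Most of the length difference therefore moved with that list. The first base changed in the same manner. G began 20.8% (SD 2.04) of reads in root and 2.62% (SD 0.349) in shoot, but 2.63% and 2.19% without the list. U, the base that ARGONAUTE1 favours at the 5′ end, began 70.01% (SD 1.78) in root and 83.2% (SD 1.36) in shoot with the list, and 88.1% (SD 0.311) and 83.7% (SD 1.46) without it, a reversed order.

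**Figure D3:**
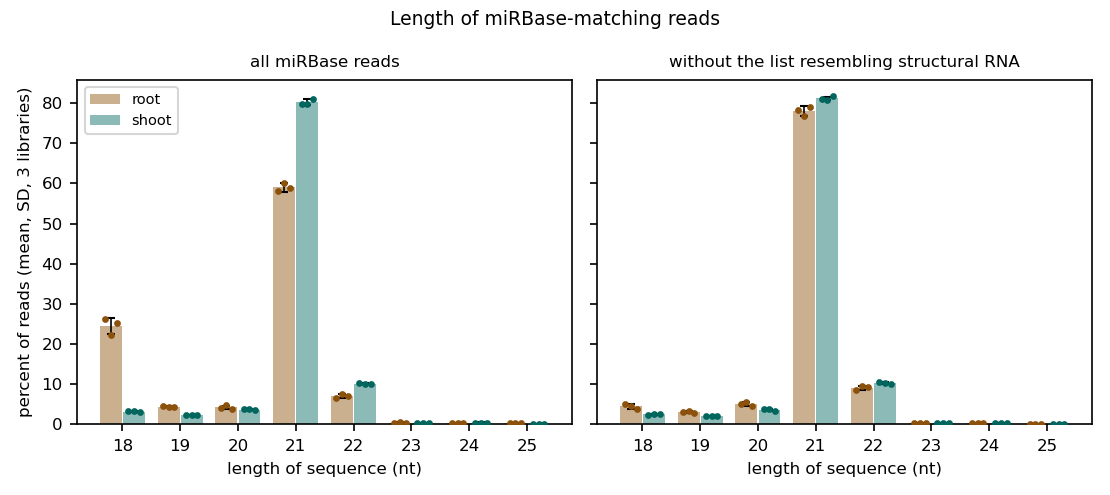
Percent of miRBase reads by length in nt, as the mean of 3 libraries (bars) with SD (error bars) and each library (points), for all miRBase reads and without the list resembling structural RNA. In root 18 nt reads fall from 24.5% to 4.43% when the list is left out, and 21 nt reads rise from 59.0% to 78.0%, close to the shoot value of 81.2%.

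Within families the organs often carried different sequences. Of 25 families with at least 10 RPM in both organs, 7 had another leading sequence in root than in shoot (miR167, miR171, miR319, miR399, miR5072, miR5083 and miR894), judged by the mean RPM over the libraries of an organ. For miR167, miR171 and miR5083 the root-leading form was above the shoot-leading form in every root library. The order of the pair was the opposite in root replicate 5 for miR319 and miR399, in root replicate 4 for miR5072, and in root replicates 4 and 6 for miR894. The share of the family in its root-leading sequence did not overlap between organs for 16 of 25 (64%), and in its shoot-leading sequence for 17 of 25 (68%). Shares within a family do not depend on the scale between libraries. For each the smallest possible exact permutation p was 0.1, and after adjustment over 25 families none was below 0.147.

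miR171 changed most. Its root-leading form held 66.8%, 73.9% and 68.7% of the family in root and 5.56%, 8.07% and 4.65% in shoot. Its shoot-leading form, from the opposite arm, held 0.656%, 0.496% and 1.41% in root and 43.4%, 42.4% and 50.8% in shoot. The groups lay far apart for both. In RPM the root-leading form was at 33.9, 50.8 and 45.1 in root and 5.33, 9.12 and 5.49 in shoot, 6.51-fold higher in root (log2 difference 2.70, SE 0.33, edgeR adjusted p = 5.29e-07, and 5.16 with TMM factors). The shoot-leading form was at 0.333, 0.341 and 0.929 RPM in root and 41.5, 48.0 and 59.9 RPM in shoot (log2 difference -6.53, SE 0.44, and -7.17 without root replicate 6). The family as a whole differed less than either of these forms.

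miR167 was split by its last base. The form ending in A held 73.1%, 69.3% and 74.1% of the family in root and 36.6%, 33.9% and 29.1% in shoot. The form ending in C held 6.82%, 7.12% and 8.41% in root and 50.3%, 54.6% and 57.4% in shoot. In RPM the C form was 41.4-fold higher in shoot (log2 difference -5.37, SE 0.32) and the A form 2.65-fold higher (-1.40, SE 0.27, turning to 1.04 with TMM factors).

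miR319 had 3 patterns. The form of 21 nt held 33.0%, 30.03% and 33.7% of the family in root and 12.2%, 11.5% and 15.6% in shoot. The form with 1 more base at the 5′ end held 27.7%, 33.7% and 31.2% in root and 79.0%, 79.8% and 76.4% in shoot. Another form, which differs from the first by T14A, was far higher in root, at 15.5, 11.2 and 14.7 RPM in root and 0.478, 0.329 and 0.284 RPM in shoot, 37.9-fold higher in root (log2 difference 5.18, SE 0.42, edgeR adjusted p = 3.92e-09). A shorter version of that form, lacking its first base, had reads in all 3 root libraries (2.93, 1.02 and 1.72 RPM) and none in shoot, at least 23.6-fold higher in root against a floor of 3 reads over the shoot libraries.

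**Figure D4:**
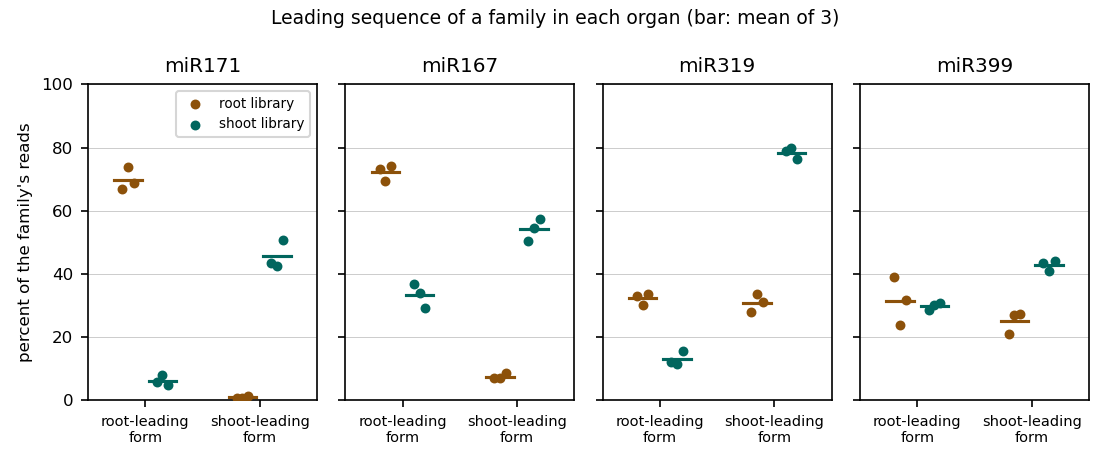
Percent of the reads of miR171, miR167, miR319 and miR399 held by the form that leads in root and by the form that leads in shoot, in each of 3 root and 3 shoot libraries, with a bar at the mean. The root-leading form of miR171 holds 69.8% of the family in root and 6.10% in shoot, while for miR399 the root-leading form holds 31.5% and 29.7% and the organs overlap.

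For miR399 the shift was smaller. The shoot-leading form held 20.9%, 26.9% and 27.1% of the family in root and 43.5%, 41.0% and 44.1% in shoot, without overlap, whereas the root-leading form held 39.1%, 23.8% and 31.6% in root and 28.4%, 30.05% and 30.7% in shoot, with overlap. miR827 kept its leading sequence, which held 68.1% of the family in root and 48.2% in shoot. miR166, miR5168 and miR5048 also kept theirs, with means within 2 percentage points of each other between organs.

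Shortened forms held a larger share in root for some families. Reads of 18 or 19 nt that start at the same base as the root-leading sequence, and so end earlier, were counted. This was done in 17 families with a root-leading sequence of 21 nt or more. This measure was chosen after the values were seen and was not tested. Their share was higher in every root library than in every shoot library for 10 of 17 families (58.8%) and lower for 1, miR399 (5.88%). In miR167, miR171, miR319, miR399 and miR5083 another sequence led in shoot, so the share depended on that switch as well. For miR171 the shortened forms held 0.231% of the family in root and 0.0505% in shoot, while the full form held 69.8% and 6.10%. No shortened read of miR167 was found. Many of these shares rested on few reads. For miR5083, miR171, miR5051, miR319, miR827, miR156 and miR1432 the shortened forms averaged 0.0855 to 0.320 RPM in root, near the floor of 3 reads in a library. For miR399 they averaged 0 RPM in root and 0.337 RPM in shoot. The others of the 10 were miR159, miR168 and miR9662. For miR159 the shortened forms held 25.1%, 24.4% and 21.7% of the family in root and 2.15%, 3.11% and 1.48% in shoot. In RPM they averaged 239 in root and 69.0 in shoot, whereas the leading form of 21 nt was at 587, 454 and 474 RPM in root and 1905, 1604 and 4610 RPM in shoot. For miR168 they held 1.35%, 1.76% and 1.52% in root and 0.0249%, 0.0400% and 0.0302% in shoot. For miR444 and miR5168 the organs overlapped, at 1.33% and 4.08% in root and 1.29% and 4.95% in shoot.

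Reads ending in CC instead of CCA, the end that mature transfer RNAs carry, made up a larger share in root in 4 families. This measure was chosen after the values were seen. Reads below 18 nt were not kept, so an 18 nt form without its last A could not be counted. For miR8175, miR5054 and miR5072 the reads without the A mostly started 1 base earlier, so both ends differed together. The printed pair of miR894 shares its 5′ start. Of the reads of miR894 that end in CCA or in CC, 23.5%, 29.3% and 22.1% lacked the last A in root and 0.755%, 0.523% and 2.51% in shoot. These rest on 10003 reads in root and 10811 in shoot. For miR8175 the share was 12.2%, 14.5% and 14.7% in root and 2.23%, 1.91% and 2.42% in shoot. For miR5054 it was 16.2%, 21.5% and 18.8% in root and 1.16%, 1.10% and 1.85% in shoot. For miR5072 it was 37.8%, 54.5% and 49.4% in root and 6.04%, 2.22% and 14.1% in shoot. No organ overlapped the other in these 4 families (exact permutation p = 0.1 each). For miR1511, 0.311% (SD 0.180) of the reads lacked the A in root and 0.149% (SD 0.165) in shoot, with overlap. A single 18 nt form held 98.3% of miR1511 in root and 99.1% in shoot. Its version without the A would be too short to be kept, so miR1511 cannot serve as a contrast. The pairs that carry the difference are shown with the seed in capitals as above.
miR894, with the last A: tTTCACGTcgggttcacca
miR894, without it: tTTCACGTcgggttcacc
miR8175, with the last A: tCCCCGGCaacggcgcca
miR8175, without it and 1 base longer at the 5′ end: aTCCCCGGcaacggcgcc
miR5054, with the last A: tCCCCACGgtcggcgcca
miR5054, without it and 1 base longer at the 5′ end: tTCCCCACggtcggcgcc
The form of miR894 without the last A was at 56.9, 48.0 and 46.6 RPM in root and 2.39, 1.31 and 2.93 RPM in shoot (log2 difference 4.51, SE 0.36, edgeR adjusted p = 3.47e-09). The form with it was at 76.0, 54.6 and 68.3 RPM in root and 87.2, 78.2 and 38.8 RPM in shoot (log2 difference -0.039, SE 0.31, adjusted p = 0.911). It turned to 2.39 with TMM factors. The printed miR8175 sequence without the last A was 56.2-fold higher in root (log2 difference 5.73, and 6.77 without shoot replicate 4) and the one with it 10.5-fold. For the miR5054 sequences the values were 48.7-fold without it and 2.41-fold with it.

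**Figure D5:**
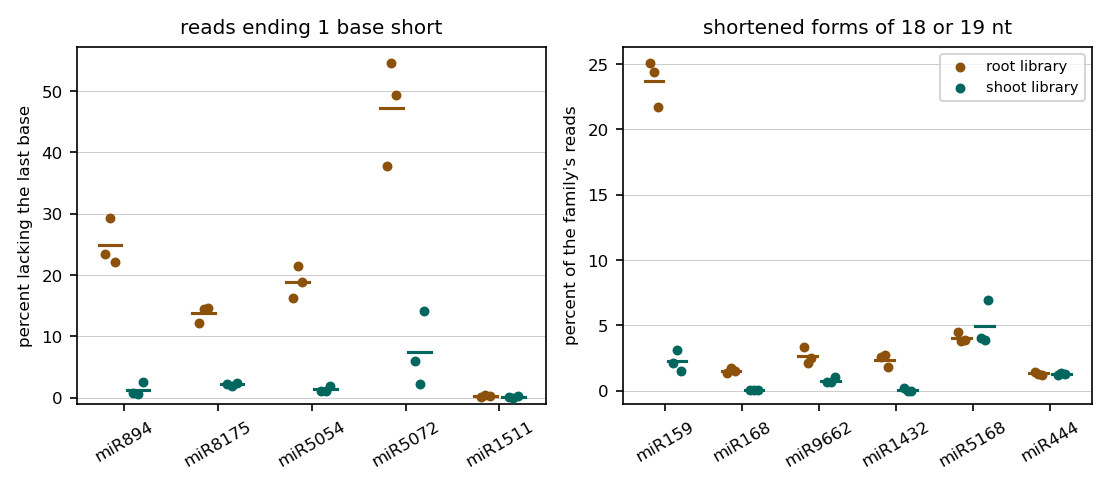
Left, percent of reads ending in CCA or CC that lack the last base in 5 families; right, percent of a family's reads that are shortened forms of 18 or 19 nt in 6 families. Points are the 3 root and 3 shoot libraries and bars their means. In miR894, miR8175, miR5054, miR5072, miR159 and miR168 every root library lies above every shoot library. In miR1511, miR5168 and miR444 the organs overlap, but most miR1511 reads were 18 nt long and would be too short to be kept without their last base.

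Single sequences gave the same picture at finer grain. Of 472 sequences that passed the filter, 437 were called (edgeR quasi-likelihood test, 92.6%), 379 higher in shoot (80.3%) and 58 higher in root (12.3%), and the RPM of the organs did not overlap for 436 (92.4%). With TMM factors 186 were called higher in shoot (39.4%) and 132 higher in root (28%), among them all 58. When the mean in the higher organ had to reach 10 RPM, the shoot-higher sequences with the largest differences came from miR160, miR5168, miR530, miR171 and miR169. The mature miR160 sequence tGCCTGGCtccctgaatgcca was at 0.133, 0.227 and 0.0663 RPM in root and 16.8, 16.8 and 23.0 RPM in shoot (log2 difference -6.93, SE 0.47). Under the same limit the largest root-higher differences came from miR8175, miR5054, miR444, miR319, miR894, miR9779 and miR6300. That of miR444, cAAGTTATgcagttgctgcct, went against its family. It was at 11.9, 5.28 and 13.1 RPM in root and 0.273, 0.329 and 0 RPM in shoot (log2 difference 5.52, SE 0.59), while the most abundant miR444 sequence, cGGCAAGCtagagacagcaac, was at 89.7, 110 and 97.5 RPM in root and 1739, 2245 and 1872 RPM in shoot (log2 difference -4.30, SE 0.29). Both were annotated as precursor matches, a label that does not place them outside the mature miRNA.

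Sequences with reads in 1 organ only were rare in amount. The 1384 root-only sequences held 0.532% of the miRBase reads of root and the 1987 shoot-only sequences 0.364% of those of shoot. Only 3 and 20 of them reached a mean of 1 RPM. The highest in shoot, tTGGCATTgagggagtcatgc of miR160, was at 4.85, 4.60 and 3.50 RPM, at least 68.6-fold higher than in root against a floor of 3 reads over the root libraries. Of the 6 most abundant shoot-only sequences 4 belonged to miR169, and of the 6 most abundant root-only sequences 3 belonged to miR9777.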

How the data were processed

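Small RNA reads of low-Pi roots and shoots were used, with 3 libraries per organ. The authors trimmed and collapsed identical reads of 18 to 25 nt in CLC Genomics Workbench (version not given in the sources used here), and the deposited counts give, per library, how often a sequence matching miRBase release 22 without mismatch was read. The authors also deposited RPM, reads per 1000000 reads kept, and dividing the count by it returned each library total. Root and shoot tables were joined by sequence, and a sequence listed for one organ only was given 0 reads in the other. The name, species and match type never differed between tables. A further 24 per-sample columns, and the columns of fold changes and p-values from the authors' own comparison, were not used, nor were the tables of sequences without a miRBase match.

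Counts were summed by family (8 families were named jointly) and tested with edgeR 4.0.16 (R 4.3.3, quasi-likelihood test, filterByExpr at a minimum count of 10, Benjamini-Hochberg adjustment at 0.05) on the 6 low-Pi libraries, with the library totals as library size and no further factor. Every adjusted p of a log2 difference (root minus shoot) comes from this fit unless another setting is named. The SE of a log2 difference was derived from the test and not estimated by the fit. It is the absolute log2 difference divided by the square root of the F value of the quasi-likelihood test. The procedure was tested on simulated data. For shares an exact permutation test, two-sided, was used (scipy 1.17.1). Alternatives were TMM factors, miRBase totals, DESeq2 1.42.0, other count filters, a replicate block, and leaving out libraries, precursor matches, joint families or sequences of 1 table. The lists of families and the rule for names were chosen with earlier results of these data known. The rule named listed families past the filter, and the 10 families and 8 sequences with the largest called differences each way at a mean of at least 10 RPM without overlap, of which only 5 root-higher families existed. It also named the leading sequences of families with 10 RPM in both organs, and the 6 most abundant sequences of each organ without a read in the other. Reads from identical copies cannot be separated, and without a genome no coordinates are given.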

Additional observations from a re-analysis of the deposited data

How the results depend on the processing

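The scale between libraries mattered most. Of the 70 families, 17 were called higher in root and 51 higher in shoot with library totals, against 26 and 21 with TMM factors, 33 and 26 with the totals of the miRBase sequences (72 families past the filter), and 26 and 21 with DESeq2 and its own size factors. With library totals DESeq2 called 17 and 51. For sequences the counts of 58 and 379 became 132 and 186, 167 and 156, and 134 and 169 on the same 3 scales. Named families lower in root by library totals that turned to higher in root are given with their log2 differences under TMM factors, miRBase totals and DESeq2 in that order: miR1432 (1.06 / 0.37 / 0.88), miR1511 (2.04 / 1.38 / 1.87), miR159 (1.12 / 0.51 / 0.98), miR164 (1.51 / 0.83 / 1.33), miR165 (1.97 / 1.31 / 1.81), miR171 (2.14 / 1.49 / 1.98), miR5049 (0.96 / 0.33 / 0.81), miR5072 (2.65 / 1.93 / 2.46), miR894 (2.55 / 1.84 / 2.36). Under TMM factors and DESeq2 only, the same held for miR166 (0.42 / 0.24), miR167 (0.43 / 0.26), miR168 (0.51 / 0.35), miR319 (0.30 / 0.13), miR827 (0.30 / 0.13), for miR5180 (1.12 / 0.96, not tested with miRBase totals), and under TMM factors alone for miR156 (0.15). Among named sequences, in the same order, it held for miR1432 tTCAGGAGagatgacaccgac (0.73 / 0.52 / 0.77), miR1511 aACCTGGCtctgatacca (1.54 / 1.37 / 1.59), miR165 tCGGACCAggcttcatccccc (1.52 / 1.35 / 1.57), miR167 tGAAGCTGccagcatgatctga (1.04 / 0.86 / 1.09), miR319 tTGGACTGaagggtgctccct (1.12 / 0.94 / 1.17), miR5072 tCCCCAGCggagtcgcca (1.17 / 0.97 / 1.22), miR5083 aTGGATCCttctgagcct (1.35 / 1.21 / 1.42), miR827 tTAGATGAccatcagcaaaca (0.33 / 0.15 / 0.38), miR894 tTCACGTCgggttcacca (1.25 / 1.03 / 1.29), miR894 tTTCACGTcgggttcacca (2.39 / 2.20 / 2.44), and under TMM factors and DESeq2 only for miR159 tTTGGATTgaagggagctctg (0.019 / 0.077), miR168 tCGCTTGGtgcagatcgggac (0.012 / 0.062). Without the filter on low counts 110 families (34 higher in root) and 830 sequences (106 higher in root, 724 in shoot) were called, since more were tested. A minimum count of 30 left 11 root-higher families and 280 called sequences (238 higher in shoot). Families summed only from sequences in both tables gave 9 root-higher calls and those without precursor matches 6. miR9777 then had a log2 difference of 0.37 and was not called (edgeR adjusted p = 0.39). The difference in miRBase share (root minus shoot) was -3.91 percentage points without precursor matches. The difference in 21 nt reads moved from -21.2 percentage points to -3.13 without the list resembling structural RNA and to -4.30 with each distinct sequence counted once. Without precursor matches 4 of 21 families had another leading sequence in each organ. Leaving out 1 library at a time put 74 to 77 families and 506 to 564 sequences past the filter, which then needs fewer libraries, and gave 72 to 76 called families (17 to 20 higher in root, 52 to 56 in shoot), 452 to 504 called sequences (55 to 70 and 386 to 447), differences of -4.49 to -4.08 points in miRBase share and -21.8 to -20.7 points in 21 nt reads, and 5 to 9 families with another leading sequence. It turned no named family or sequence that was called. The miR894 sequence tTTCACGTcgggttcacca, not called in any of these fits, ranged from -0.32 to 0.18. Among named families the calls it added were those of miR894 and miR5072 without shoot replicate 6. It moved the log2 difference of miR528 to -8.43 without root replicate 5 and -5.75 without shoot replicate 5, that of miR9863 to -3.72 and of the leading miR159 sequence to -1.80 without shoot replicate 6, and that of the leading miR169 sequence to -4.80 without shoot replicate 5. Calls were lost for the miR5083, miR5072 and miR894 sequences that lead in shoot, at log2 differences of -1.08, -1.24 and -1.18 with all libraries (edgeR adjusted p = 0.0501 to 0.123 where lost).

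Root and shoot libraries share replicate numbers, but the deviations of same-numbered libraries correlated at only 0.108, 0.041 and -0.105 over families, so the numbers were not taken to pair the libraries. With the replicate number as a block 17 families were called higher in root and 51 higher in shoot, and 55 and 377 sequences, and no named family or sequence changed its call. Depth limits the scarce families, since 3 reads correspond to 0.170 to 0.284 RPM.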

Other observations

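Families that were in none of the lists also differed between organs. miR6213, a barley entry, had 2 reads in root and 61 in shoot, a ratio of 38.9 with an exact 95% interval from 10.3 to 329. miR6201, another barley entry, was at 0.333, 0.341 and 0.398 RPM in root and 30.5, 23.5 and 12.02 RPM in shoot. miR5200 was at 0.133, 0.0568 and 0.0663 RPM in root and 1.57, 1.48 and 0.757 RPM in shoot. In root, miR6250 was at 2.87, 7.04 and 4.84 RPM against 0.615, 0.0822 and 1.04 RPM in shoot. These families were chosen after their values were seen.

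Reads bearing the name let-7, a family of animals, were counted at 0.0667, 0 and 0 RPM in root replicates 4, 5 and 6 and at 0, 0.0822 and 4.64 RPM in shoot replicates 4, 5 and 6. Of the 50 shoot reads nearly all were in replicate 6, the library that stood apart from the other shoot libraries. The part of such reads in the differences of that library was not tested.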
